A study of Mus musculus with 45 samples.

Results

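Within the 14 arrays of mouse brain tumours made with exon 10 deletions of the growth factor receptor gene Pdgfra, 4 arrays carried little RNA of the tumour and cell division markers and much RNA of neurons, and these brain-like arrays were set beside the remaining 10. The brain-like set holds replicates 1, 2 and 3 of E10 del with replicate 2 of E10 del.v2, and the remaining set holds replicates 4 and 5 of E10 del with replicates 1 and 3 to 9 of E10 del.v2. The sets were chosen by the measured values of Cdkn2a (low) and of neuron genes (high) in these same arrays. Differences between the 2 sets are therefore described and not tested, and they support nothing on their own.

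Both genotypes were from CD-1 nude mice on a p53null background, a state that every array of the series shares, and the disease model was labelled glioblastoma. The mutant receptors were built as retroviral constructs for use in primary mouse astrocytes that lack p53. The sampled material was labelled mouse brain, and no agent was given by the labels. The labels do not say how E10 del.v2 differs from E10 del, how much host brain a sample contained, or whether samples came from separate animals, so p-values below measure only the spread between these samples. The series held 45 arrays in all: 5 E10 del, 9 E10 del.v2, 8 EGFRvIII (a truncated epidermal growth factor receptor), 9 V544ins, 5 C450 ins, 5 D842V, 3 E7 del and 1 Pdgfra WT. RNA was hybridised to Affymetrix arrays that read transcripts near their 3' ends, and the values are log2 expression levels from RMA, so a difference of 1 is a doubling of signal. Array medians lay between 4.66 and 4.85, and the number of arrays, not sequencing depth, limits precision. Of 17097 named genes, 11809 passed a filter on low values (above 4.79, the median of the table, in at least 3 arrays).

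Cdkn2a encodes the cell cycle inhibitors p16Ink4a and p19Arf, the second of which acts upstream of p53. Mki67 encodes the Ki-67 protein of cycling cells, and Rbfox3 encodes NeuN, a nuclear protein of mature neurons. A glioma grows into brain, so that a piece of tissue holds tumour cells together with host neurons, glia, vessels and immune cells. In bulk samples of this kind fewer cells of a type and less RNA per cell cannot be told apart.

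Cdkn2a had log2 values of 3.85, 4.30 and 4.46 in E10 del replicates 1, 2 and 3 and 4.05 in E10 del.v2 replicate 2, against 7.83 to 9.95 (median 8.69) in the remaining 10 arrays. The means differed by -4.61, with 4.16 ± 0.27 in the brain-like arrays (SD, n = 4) and 8.78 ± 0.62 in the remaining arrays (SD, n = 10). Between the highest brain-like and the lowest remaining value lay 5 arrays of other genotypes, V544ins replicates 1, 2, 3 and 6 and D842V replicate 1, at 7.01 to 7.73, and no array lay between 4.46 and 7.01. Mki67 was 6.88, 7.0, 5.60 and 4.72 in the brain-like arrays, in the same order, against 9.32 to 10.61 (median 10.01) in the remaining arrays, a difference of -3.94. Its lowest value among all other 41 arrays was 6.88, so Mki67 separated the sets within exon 10 but not in the whole series. Rbfox3 was 11.59, 11.66, 12.02 and 12.31 in the brain-like arrays and 7.28 to 11.45 (median 9.72) in the remaining arrays, a difference of 2.29, and its other 2 probe sets differed by 2.76 and 2.53. On the neuron side the sets nearly touched. The mean of the 17 measured pan-neuronal genes, used below as a score of neuronal RNA, was 11.35, 11.21, 10.85 and 11.78 in the brain-like arrays, while E10 del.v2 replicate 1, the highest of the remaining arrays, stood at 10.55 and the lowest, E10 del.v2 replicate 9, at 7.95.

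**Figure D1:**
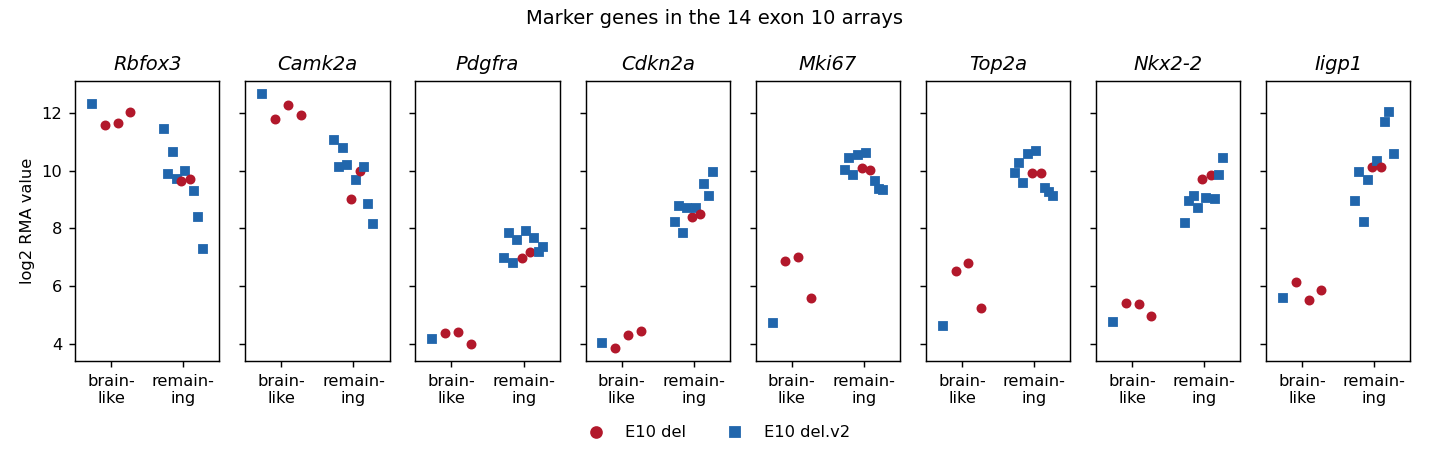
Log2 RMA values of 8 genes in each of the 14 exon 10 arrays, with the 4 brain-like arrays left of the remaining 10 in every panel and 1 point per array. Cdkn2a is at 3.85 to 4.46 in the brain-like arrays and at 7.83 to 9.95 in the remaining arrays, whereas Rbfox3 is 11.59 to 12.31 against 7.28 to 11.45.

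Cdkn2a values within each genotype are given as a description, since the choice of arrays fixed their direction. Among E10 del arrays Cdkn2a averaged 4.20 in the 3 brain-like and 8.46 in the 2 remaining arrays, and among E10 del.v2 arrays it was 4.05 in the brain-like array and 8.85 on average in the 8 remaining ones. Sample titles are numbered 1 to 30 and 41 to 64, without a statement that these ranges are batches. In the lower range Cdkn2a averaged 4.20 in 3 brain-like and 8.53 in 5 remaining arrays, and in the upper range it was 4.05 in 1 and 9.03 in 5. The difference between probes at the 3' and 5' ends of Actb, a measure of RNA integrity, was 0.70, 0.93, 0.91 and 1.19 in the brain-like arrays and 0.45 to 0.78 in the remaining arrays, so that 3 of the 4 were above all 10. The same difference for Gapdh did not separate the sets, at 0.08, 0.10, 0.11 and 0.36 against 0.03 to 0.39. The part of RNA integrity in the differences described here was not tested.

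Across all genes, 1422 of 11809 (12%) were higher in all 4 brain-like arrays than in all 10 remaining arrays and 2431 (20.6%) were lower in all 4, and the median difference over all genes was -0.09. The balance of these counts depends on scaling. With each array centred on its median, which raised every difference by 0.15, 2124 genes were higher and 1686 lower, so that 55.7% of genes without overlap were higher, against 36.9% in the deposited values. After a further quantile normalisation 1706 were higher and 2149 lower. Set against all 41 other arrays of the series, 121 genes (1.02%) were above every one and 474 (4.01%) were below every one. These counts follow from a division made on these arrays, and the counts within lists below are to be read against them. Among genes without overlap, the 10 with the largest higher values were Cdh9, Calb1, Gsg1l, Itpka, Icam5, Cdkl4, Rprml, Rin1, Caln1 and Tesc, with differences of 3.0 to 3.42. Several are known from the cortex: Calb1 encodes the calcium buffer calbindin, Icam5 a dendritic adhesion protein of the forebrain, and Itpka a kinase of dendritic spines. Calb1 was 11.70, 11.52, 11.86 and 11.11 in the brain-like arrays and 5.28 to 10.44 (median 8.35) in the remaining ones. Only Cdkl4 of these 10 was also above all 41 other arrays, at 7.35 to 8.25 in the brain-like arrays and 6.39 at most elsewhere.

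The 10 genes with the largest lower values were Eif2s3y, Cdkn2a, Car8, Iigp1, Xaf1, Col20a1, Mycn, Sema3d, Nkx2-2 and B3gnt5, with differences of -5.37 to -4.15. They belong to different processes: Eif2s3y is a Y-linked translation factor gene, Iigp1 and Xaf1 are induced by interferon, Mycn is a MYC family oncogene, and Nkx2-2 is a transcription factor of the oligodendrocyte lineage. Of the 10, Cdkn2a, Iigp1, Xaf1, Mycn and B3gnt5 were also below all 41 other arrays. Mycn stood at 8.89, 9.61, 7.53 and 9.13 in the brain-like arrays against 12.83 to 13.30 in the remaining arrays by its brightest probe set. The other 2 probe sets of Mycn differed by only -0.06 and 0.12 and lay between 3.40 and 7.51 in all 14 arrays, so its probe sets disagree.

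Genes of cell division gave the most uniform group. Entry into mitosis runs on a wave of transcripts for the mitotic kinases, cyclins and spindle proteins that peaks in G2, and S phase on genes for the helicase, polymerases and nucleotide supply. All 19 measured mitosis genes were lower in the 4 brain-like arrays without overlap, under both other scalings too, with a median difference of -3.10 against -0.09 over all genes. Top2a, the topoisomerase that untangles chromosomes, was 6.53, 6.81, 5.24 and 4.62 in the brain-like arrays and 9.14 to 10.67 (median 9.91) in the remaining arrays. Bub1, a kinase of the spindle checkpoint, was 3.89, 4.77, 4.30 and 3.12 against 6.90 to 8.69 (median 7.88). Ube2c, the ubiquitin carrier of the anaphase-promoting complex, differed by -3.61, Cdk1, the kinase that drives mitosis, by -3.60, and Prc1, a bundler of spindle microtubules, by -3.38. E10 del.v2 replicate 2 was the lowest of all 14 arrays for each of these 5 genes and for Mki67. Of 20 DNA replication genes 17 were lower without overlap (median -2.41), led by Rrm2, a subunit of ribonucleotide reductase (-3.74), Pole, the leading strand polymerase (-2.93), and Cdt1, which loads the helicase (-2.90). The exceptions were Ccne2, Ccne1 and E2f1, whose differences were -1.47, 0.25 and 0.11.

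Promoters of the mitosis genes are shown because these genes are the group in which every measured member was lower without overlap. The cell cycle homology element (CHR, TTTGAA) and the CCAAT box are the known promoter elements of G2 and M phase genes. Windows of 250 bases before to 50 bases after the annotated start were taken from RefSeq (build GRCm38.p6) and searched on both strands for TTTGAA and CCAAT. Matches to the 2 motifs can share at most 1 letter and were counted separately. A window was found for 15 of the 20 listed mitosis genes: 11 (73.3%) held TTTGAA and 13 (86.7%) held CCAAT, against 20.2% and 41.1% of 27025 genes of the table. Of the 15 DNA replication genes with a window 2 (13.3%) held TTTGAA and 10 (66.7%) held CCAAT. The motif TTTGAA was also held by 4 of 9 pan-neuronal genes (44.4%), a list that was higher in the brain-like arrays, and by 1 of 11 oligodendrocyte progenitor genes (9.09%), while CCAAT was held by 4 (44.4%) and 5 (45.5%) of them. The windows of the 3 mitosis genes with the largest differences are given 5′ to 3′ on the gene's own strand, with TTTGAA or its complement TTCAAA and CCAAT or its complement ATTGG in capitals.
Top2a, chr11:99024140-99024439, minus strand: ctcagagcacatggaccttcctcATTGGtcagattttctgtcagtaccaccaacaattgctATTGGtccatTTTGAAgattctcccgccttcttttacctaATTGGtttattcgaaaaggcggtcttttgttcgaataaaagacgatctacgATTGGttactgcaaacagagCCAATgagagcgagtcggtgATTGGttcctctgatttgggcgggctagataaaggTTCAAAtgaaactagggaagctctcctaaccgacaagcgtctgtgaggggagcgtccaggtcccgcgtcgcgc
Mki67, chr7:135716330-135716629, minus strand: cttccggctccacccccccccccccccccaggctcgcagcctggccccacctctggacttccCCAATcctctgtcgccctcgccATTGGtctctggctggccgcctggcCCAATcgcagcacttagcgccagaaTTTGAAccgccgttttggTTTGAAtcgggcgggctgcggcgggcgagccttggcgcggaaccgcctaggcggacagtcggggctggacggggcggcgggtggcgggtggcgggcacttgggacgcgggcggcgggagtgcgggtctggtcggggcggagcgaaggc
Bub1, chr2:127831810-127832109, minus strand: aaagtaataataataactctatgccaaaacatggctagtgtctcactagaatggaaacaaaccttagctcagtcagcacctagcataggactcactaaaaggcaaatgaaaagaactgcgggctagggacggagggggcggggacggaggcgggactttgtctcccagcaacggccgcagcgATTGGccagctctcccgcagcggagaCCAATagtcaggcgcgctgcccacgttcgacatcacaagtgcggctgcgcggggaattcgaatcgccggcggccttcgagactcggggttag
Top2a and Mki67 each held 2 matches to TTTGAA, and Bub1 held none in this window. A match is a description of the sequence and not of binding.

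Several inhibitors of cyclin-dependent kinases were low in the same arrays as the division genes. Cdkn2a, Cdkn2c, Cdkn2b and Cdkn1b were lower without overlap in the brain-like arrays, with differences of -4.61, -3.25, -1.97 and -0.95. The first 3 were also below all 41 other arrays. Cdkn2b, the neighbour of Cdkn2a that encodes p15Ink4b, was 5.54, 5.17, 5.55 and 4.93 against 6.06 to 8.23 in the remaining arrays. Cdkn1c was low as well, at 6.17, 7.03, 5.80 and 6.16 against 7.0 to 9.45. It overlapped only between E10 del replicate 2 and E10 del.v2 replicate 1. Cdkn2d was slightly higher without overlap (difference 0.36), and Cdkn1a, which encodes p21, overlapped at 6.19 to 8.15 in the brain-like arrays and 6.08 to 7.82 in the remaining ones. Among 12 measured p53 target genes none was without overlap in either direction in the deposited values, and their median difference was -0.04. With arrays centred that median was 0.12 and Sesn1 was higher without overlap.

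Receptor, growth factor and MYC genes differed among themselves. Pdgfra, by its 1 probe set, was 4.38, 4.41, 4.0 and 4.16 in the brain-like arrays and 6.79 to 7.92 (median 7.27) in the remaining arrays, a difference of -3.12. The brain-like values lay below those of all 41 other arrays, in which the lowest was 4.53. The files do not say whether this probe set reads the introduced receptor, the mouse gene or both. Pdgfb, a ligand, was higher without overlap at 5.94 to 6.22 against 3.99 to 5.22, while Pdgfc and Pdgfd overlapped, as did Pdgfrb except with arrays centred. Of 15 genes that report MAPK signalling 6 were lower without overlap (5 with arrays centred), among them the feedback inhibitors Spry1 (-2.99) and Spry4 (-2.18), the transcription factor Etv4 (-2.94) and Ccnd1, which encodes cyclin D1 (-2.88). Epha4, also found in neurons, was the 1 member higher without overlap (1.80). In the list of MYC family and ribosome synthesis genes 7 of 10 were lower without overlap (6 with arrays centred), with Mycl at -2.81 and Myc at -2.79 beside Mycn.

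Oligodendrocyte progenitor genes, which gliomas driven by PDGF signalling are known to express, were lower nearly as uniformly as the mitosis genes. Of 14 measured members 13 were lower without overlap (median -2.75), Matn4 being the exception (-2.92, with overlap). Nkx2-2 was 5.41, 5.37, 4.95 and 4.76 in the brain-like arrays and 8.19 to 10.45 (median 9.08) in the remaining arrays. Olig2, a lineage transcription factor, was 7.53, 7.76, 7.68 and 7.19 against 10.54 to 11.43. Gpr17, a receptor of committed progenitors, differed by -3.82, and Sox10, a lineage factor, by -3.54. Mature myelin genes did not follow: 4 of 15 were lower without overlap (Ugt8a, Cnp, Cldn11 and Fa2h, -2.41 to -1.64), the major myelin protein genes Mbp and Mog both differed by -0.60 with overlap, and the median was -0.60. Of 12 neural stem and progenitor genes 5 were lower without overlap, namely Sox4, Fabp7, Hes5, Vim and Sox2. Sox4 was nearly level among the brain-like arrays at 9.47 to 9.53, below 10.57, the lowest value elsewhere in the series.

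Interferon response genes were lower as well. Of 7 measured members 6 were lower without overlap (median -2.95), and Mx1 was the exception (-1.92). Under both other scalings Irf7 overlapped as well, which left 5. Usp18, which restrains interferon receptor signalling, was 5.95, 6.11, 5.18 and 4.79 in the brain-like arrays against 6.45 to 10.29 (median 9.24) in the remaining arrays. Iigp1 was 6.15, 5.54, 5.86 and 5.61 against 8.22 to 12.03 (median 10.13). The remaining arrays varied widely among themselves, and their list means ran from 6.12 in E10 del.v2 replicate 1 to 9.51 in E10 del.v2 replicate 8, the brain-like means being 5.47, 5.53, 4.96 and 4.77. Immune cell markers did not show this separation. None of 13 microglia genes was without overlap (median -0.77), and their list means were 8.26, 7.89, 7.48 and 7.11 in the brain-like arrays and 7.66 to 9.31 in the remaining arrays. The same held for the 6 MHC class II genes (median -1.05) and, with Gpnmb as the exception in the deposited values alone, for the 9 tumour macrophage genes (median -0.83). None of the 9 lymphocyte genes with a probe set passed the filter on low values.

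**Figure D2:**
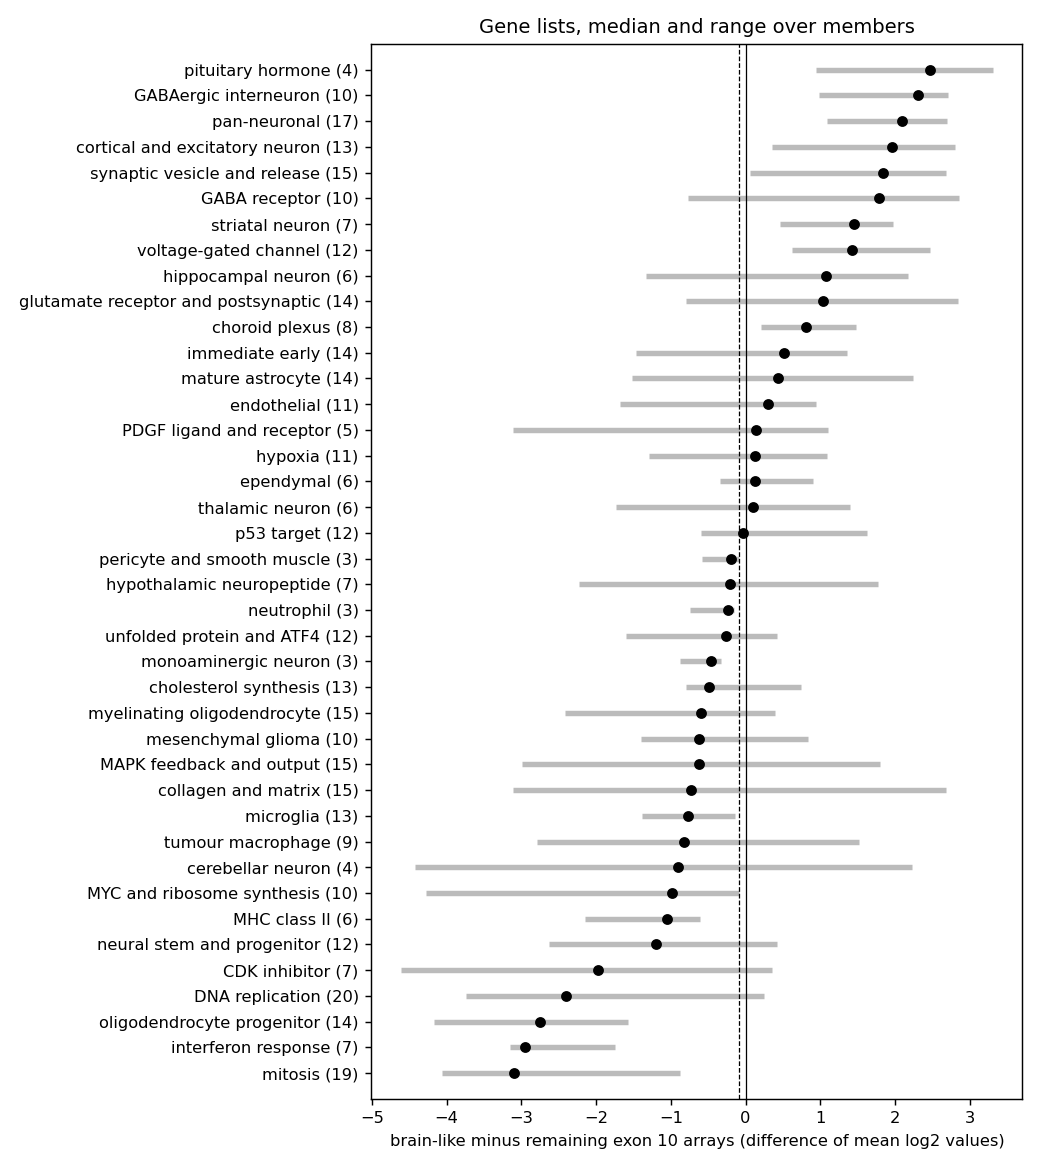
Difference of mean log2 values, brain-like minus remaining exon 10 arrays, for gene lists with at least 3 members past the filter (number in parentheses). Points are medians over members, grey bars run from the lowest to the highest member, the solid line marks 0 and the dashed line the median over all genes (-0.09). Mitosis (-3.10), interferon response (-2.95) and oligodendrocyte progenitor genes (-2.75) lie at the bottom, and pituitary hormone (2.47) and several neuronal lists at the top. The cerebellar neuron list lies at -0.91.

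General neuronal and synaptic genes were higher, with less uniformity than the division genes were lower. In the pan-neuronal list 11 of 17 genes were higher without overlap (14 with arrays centred, median 2.09 in the deposited values). Camk2a, a kinase of excitatory synapses, was 11.79, 12.27, 11.95 and 12.66 in the brain-like arrays and 8.15 to 11.07 in the remaining arrays. Cplx2, a regulator of vesicle fusion, differed by 2.63, and Sv2b, a vesicle protein, by 2.70 with overlap, since E10 del replicate 3 stood at 9.92 below the highest remaining array at 10.62. Of 15 synaptic vesicle genes 6 were higher without overlap (10 with arrays centred, 8 after quantile normalisation), Napb leading (2.69). Of 14 glutamate receptor and postsynaptic genes 5 were (7 with arrays centred), including the receptor subunits Grin2b (2.84) and Gria1 (2.57) and the scaffold gene Dlg2 (2.38). Of 10 GABA receptor genes 5 were under every scaling, including the subunit genes Gabra2 (2.85) and Gabra4 (2.15). Of 12 voltage-gated channel genes 4 were (6 under both other scalings), including Cacna1b (2.47) and Scn2a (2.01). None of these 51 genes was lower without overlap. Lists of cerebellar and monoaminergic neurons had negative medians but rested on few genes. The 4 cerebellar genes did not move together (median -0.91). Car8, named above (-4.42), and En2 were lower without overlap, while Neurod1 (2.23) and Slc1a6 overlapped. The cerebellar genes Gabra6, Cbln3, Pcp2 and Fat2 did not pass the filter on low values and lay at 2.58 to 3.43 in all 14 arrays. Of 3 monoaminergic genes 1 was lower without overlap (0 with arrays centred), with a median of -0.47. That gene, Tph2, lay at only 2.77 to 4.70 in the 14 arrays. Among 14 mature astrocyte genes the members split. Gjb6 (2.23), the glutamate transporter gene Slc1a2 (1.49) and the connexin gene Gja1 (1.20, with overlap after quantile normalisation) were higher without overlap, S100b was lower without overlap (-1.52), and Gfap and Aqp4 overlapped at -0.86 and -1.38.

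The 4 brain-like arrays differed among themselves in neuron markers of brain region. E10 del replicate 3 stood apart from the other 3 in markers of region. Its cortical and excitatory neuron list mean was 6.24, against 8.81 and 8.59 in E10 del replicates 1 and 2, with 9.51 in replicate 2 of E10 del.v2, and its striatal list mean was 11.13, against 6.76, 7.30 and 7.09. Slc17a7, the vesicular glutamate transporter of cortical neurons, was 2.86 in that array and 7.51, 7.23 and 8.50 in the other 3, and the cortical transcription factor genes Neurod6 and Tbr1 were 2.56 and 3.01, against 8.51 to 9.20 and 7.62 to 9.38. Not every member of the cortical list was low there. Arpp21 was 12.53, against 11.19, 11.60 and 11.53 in the other 3, and Lamp5 was 10.35, against 8.71, 9.23 and 11.22. Between the 2 sets, 1 of 13 cortical and excitatory neuron genes was higher without overlap (0 after quantile normalisation), and 0 of 7 striatal genes. The dopamine receptor genes Drd1 and Drd2 were 9.93 and 9.24 in E10 del replicate 3, against 5.89 to 6.24 and 3.38 to 4.70 in the other 3. Ppp1r1b, which encodes the striatal phosphoprotein DARPP-32, was 11.08 there and 5.21 to 8.24 in the others. Outside exon 10, V544ins replicate 2 had a striatal list mean of 11.09 with a cortical list mean of 6.03.

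Within exon 10, pituitary hormone and choroid plexus genes were high in only a few arrays. Other genotypes had such arrays too. Pituitary list means were 12.44 in C450 ins replicate 5 and 12.28 in V544ins replicate 4, where the highest brain-like mean was 9.33. Choroid plexus list means were 7.33 in C450 ins replicate 3 and 6.78 in D842V replicate 5. Prl, the prolactin gene, was 3.79, 6.36, 10.90 and 2.34 in the brain-like arrays, again with the E10 del.v2 array last, and Gh, the growth hormone gene, was 3.52, 4.89, 10.57 and 3.26. Pomc, the precursor gene of several pituitary peptides, was 4.85, 12.23, 9.73 and 3.76. In the remaining 10 arrays Prl reached at most 3.86, Gh 3.68 and Pomc 5.96. Ttr, the transthyretin gene of the choroid plexus, was 9.61, 13.42, 7.73 and 7.31 in the brain-like arrays, so E10 del replicate 2 was highest, and E10 del.v2 replicate 4 among the remaining arrays reached 12.82. The hypothalamic gene Pmch was 2.94 to 3.26 in all brain-like arrays. It reached 11.76 and 11.15 in E10 del.v2 replicates 3 and 4 of the remaining set. None of these genes separated the sets. Of 10 interneuron genes 4 were higher without overlap in the deposited values and 6 overlapped, while with arrays centred 6 were higher. Sst was among the 4, at 10.64, 10.56, 10.32 and 9.71 in the brain-like arrays against 6.04 to 9.33 in the remaining arrays. Vip, which marks another interneuron class, was 9.75, 9.72, 3.90 and 10.23 against 3.0 to 8.70 in the remaining arrays, so E10 del replicate 3 stood apart there too.

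**Figure D3:**
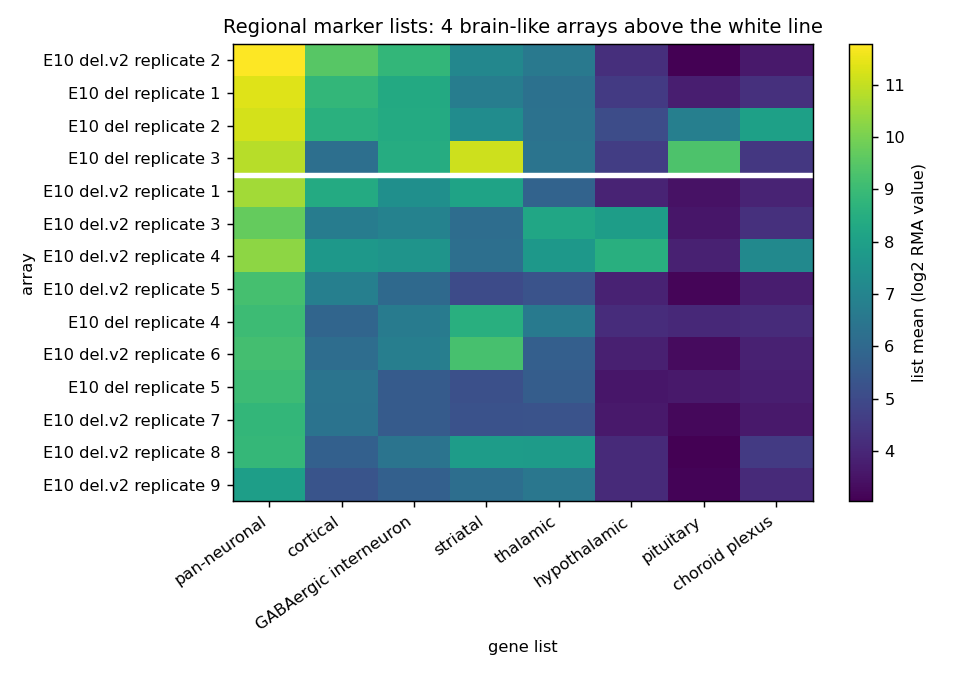
Mean log2 RMA value of 8 marker lists in each of the 14 exon 10 arrays, the 4 brain-like arrays above the white line. E10 del replicate 3 has the highest striatal (11.13) and pituitary (9.33) and the lowest cortical (6.24) list mean of the brain-like arrays, and E10 del replicate 2 the highest choroid plexus mean (8.01).

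Genes of the Y chromosome also differed between the sets. Eif2s3y was 2.45, 3.12, 3.32 and 3.23 in the brain-like arrays and 8.02 to 9.03 in the remaining arrays by its brighter probe set. Its second probe set was at 2.22 to 2.92 in all 14. Uty and Kdm5d, looked up after the value of Eif2s3y was seen, were 2.91 to 3.08 and 3.04 to 3.28 in the brain-like arrays, against 5.45 to 6.55 and 6.17 to 7.23. Those values are from the brightest probe set of each gene. The other probe set of Uty was 2.94 to 3.64 against 4.22 to 5.23. The other 2 of Kdm5d overlapped, with differences of -0.09 and -0.37. Xist, the RNA of the inactive X chromosome, also looked up afterwards, was 11.30 to 11.75 in the brain-like arrays and 10.16 to 11.29 in the remaining arrays. Values of Eif2s3y as low as those of the brain-like arrays were found in 6 arrays of other genotypes, namely EGFRvIII replicates 1, 2, 6, 7 and 8 and V544ins replicate 6. The Y-linked genes did not go together in every array. In EGFRvIII replicates 3, 4 and 5 and V544ins replicate 5, Eif2s3y was 8.64, 7.25, 8.35 and 9.02. Uty there was 2.76, 2.55, 3.16 and 3.14, and Kdm5d was 7.10, 5.92, 6.61 and 6.95. The sex of host and of grafted cells is not given by the labels, and its part in these values was not tested.

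To ask how genes vary with neuronal RNA in arrays that the division did not use, each gene was regressed on the pan-neuronal score in the 30 arrays of EGFRvIII, V544ins, C450 ins, D842V and E7 del, with genotype as a factor. The slope is the change in a gene's log2 value per log2 unit of the score. Of 11792 genes tested 2424 rose with the score (20.6%) and 3664 fell (31.1%) at an adjusted p under 0.05. The 10 largest positive slopes outside the list belonged to Hpcal4, Hpca, Rasgrp1, Kalrn, Snhg11, Cck, Ddn, Ckmt1, Kcnc1 and Slc12a5, from 1.41 to 1.18, and included the neuronal calcium sensor genes Hpcal4 (1.41 ± 0.10, SE) and Hpca (1.32 ± 0.13), the neuropeptide gene Cck (1.26 ± 0.09) and the neuronal chloride exporter gene Slc12a5 (1.18 ± 0.04). The 10 most negative belonged to Esm1, Acp5, Ms4a7, Mmp13, Col3a1, Col6a3, Bfsp2, Mmp9, Epcam and Ada, from -0.84 to -0.51. Esm1 is a gene of sprouting endothelium (-0.84 ± 0.14), Col3a1 and Col6a3 encode collagens, and Mmp13 and Mmp9 encode matrix proteases. Title range moved with the score in V544ins, where replicates 1 to 3 had titles in the lower range and the highest scores. With title range as a block 1795 genes rose and 2577 fell, within titles 41 to 64 alone 583 rose and 143 fell, and within titles 1 to 30 alone 1829 rose and 2604 fell.

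Division genes fell with the score in these arrays, which the division did not use. All 19 mitosis genes and 19 of 20 DNA replication genes fell, with median slopes of -0.34 and -0.28. Mki67 had a slope of -0.31 ± 0.07 (adjusted p = 0.00122), Cdkn2a of -0.28 ± 0.07 (adjusted p = 0.00151) and Cdkn2b of -0.23 ± 0.07 (adjusted p = 0.00983). General and cortical neuron lists rose, with 12 of 12 voltage-gated channel, 13 of 15 synaptic vesicle and 12 of 13 cortical neuron genes passing. Of 4 cerebellar neuron genes 1 rose and 2 fell. Mature astrocyte genes rose (11 of 14), led by Gjb6 (0.90 ± 0.07), and 10 of 15 collagen and matrix genes fell, Col3a1 among them. Groups that were low in the brain-like arrays did not all follow. Of 14 oligodendrocyte progenitor genes only Nkx2-2 fell (-0.37 ± 0.11, adjusted p = 0.00606), Olig2 had a slope of -0.19 ± 0.09 (adjusted p = 0.0848), and none of 7 interferon genes passed (median slope -0.11). Pdgfra (-0.18 ± 0.11, adjusted p = 0.160), Mycn (-0.05 ± 0.04, adjusted p = 0.349), Iigp1 (-0.05 ± 0.13, adjusted p = 0.751) and Eif2s3y (-0.32 ± 0.19, adjusted p = 0.167) did not pass. No microglia gene of 13 passed, with a median slope of -0.05. Slopes that miss the threshold do not show that these genes are unrelated to the score. Oligodendrocyte progenitor list means were also low in EGFRvIII replicates 4, 5 and 6, at 6.85, 6.04 and 7.91. The scores of those arrays were 9.36, 6.72 and 7.88. What part those arrays had in the progenitor slopes was not examined. The remaining 10 exon 10 arrays did not show the falling relation of division genes. There the score had r = 0.40 (rho = 0.59) with Mki67, r = 0.30 (rho = 0.49) with the mitosis list and r = 0.34 (rho = 0.60) with the DNA replication list, but r = -0.84 (rho = -0.76) with Cdkn2a. Without the 2 arrays farthest in score, E10 del.v2 replicates 1 and 4, these r values were 0.77, 0.71, 0.65 and -0.76. They are given as a description with no test, since the set was bounded by these values.

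Over 11792 genes the slope and the difference between the 2 exon 10 sets had a Pearson correlation of 0.79, given as a description across genes, which are not independent. The sets were divided by neuron genes and the slope is on a neuronal score. Agreement between the 2 is therefore built in to an unknown degree and is not a replication. Of the 2431 genes lower without overlap 1880 fell with the score and 0 rose, where 31.1% of all 11792 genes fell and 20.6% rose. Of 1411 genes higher without overlap, pan-neuronal list members left aside, 1120 rose and 1 fell. An excess over the shares of all genes follows in part from the same choice of sets.

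**Figure D4:**
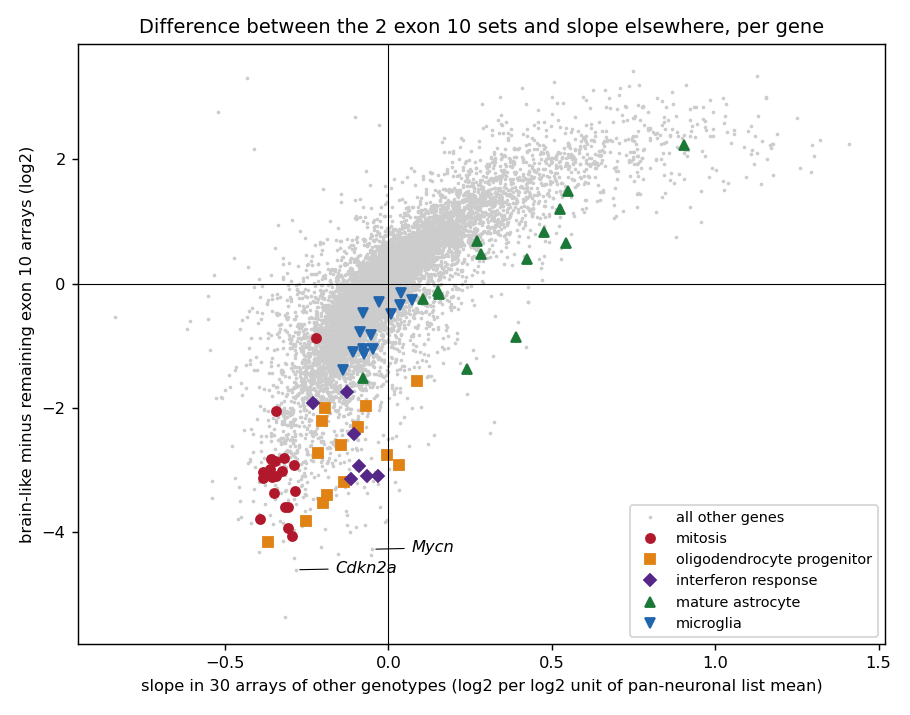
Each point is a gene, with its slope on the pan-neuronal list mean in 30 arrays of other genotypes on the x axis and its brain-like minus remaining difference in exon 10 arrays on the y axis, both on the log2 scale. Mitosis genes have negative slopes throughout, while oligodendrocyte progenitor and interferon genes lie as low on the y axis with slopes nearer 0, as does Mycn (slope -0.05, difference -4.28).

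Relations of 11 measures with the score were tested in the same 30 arrays after subtracting genotype means, with p-values from permutation within genotypes, adjusted over the 11. Cdkn2a gave Pearson r = -0.62 (p = 0.00087, adjusted p = 0.00191) and Spearman rho = -0.62 (p = 0.00076, adjusted p = 0.00167). Mki67 gave r = -0.63 (p = 0.00081, adjusted p = 0.00191) and rho = -0.70 (p = 0.00013, adjusted p = 0.000357), and the mitosis list mean r = -0.68 (p = 0.00024, adjusted p = 0.00088) and rho = -0.76 (p = 8e-05, adjusted p = 0.000357). The mature astrocyte list mean gave r = 0.79 and rho = 0.80, each with p = 1e-05, the smallest that these permutations can give (adjusted p = 0.00011). Without the 2 arrays farthest from the median score, V544ins replicate 5 and E7 del replicate 3, r was -0.61 for Cdkn2a, -0.61 for Mki67, -0.67 for the mitosis list and 0.77 for the astrocyte list. Cdkn2b (-0.53), the DNA replication list (-0.71) and the collagen list (-0.61) also passed, while the myelin (0.05), oligodendrocyte progenitor (-0.25) and microglia (-0.17) list means and the Actb 3' minus 5' difference (0.15) did not. By the same permutation test within titles 41 to 64 (17 arrays), r was -0.38 for Cdkn2a (p = 0.169, adjusted p = 0.573), -0.15 for Mki67 (p = 0.617, adjusted p = 0.870) and -0.26 for the mitosis list (p = 0.362, adjusted p = 0.797). By permutation within titles 1 to 30 (13 arrays) it was -0.61 for Cdkn2a (p = 0.0895, adjusted p = 0.141), -0.91 for Mki67 (p = 0.00288, adjusted p = 0.0105) and -0.92 for the mitosis list (p = 0.00121, adjusted p = 0.00753). The relation of Cdkn2a thus passed over both ranges together and in neither range alone by Pearson r. Whether the relations differ between the ranges was not tested.

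Distances from the lines of the other genotypes are given as a description, because the arrays were chosen for low Cdkn2a at high neuron genes and a position below the Cdkn2a line follows from that choice. Taking the mean of the 5 genotype lines, the brain-like arrays lay 3.90 to 4.37 log2 units below it, the remaining exon 10 arrays between -0.68 and 0.77 of it, and the 30 arrays that gave the lines between -1.30 and 1.25 of their own lines. Mycn lay 3.05 to 5.15 below by its brightest probe set, and Iigp1 3.99 to 4.61 below. For Mki67 the distances were -3.82 to -1.71, which overlap the range of the 30 arrays (-2.57 to 1.04), and for Rbfox3 they were -0.59 to 0.51. The scores of E10 del.v2 replicate 2 (11.78) and E10 del replicates 1 and 2 exceed 11.11, the highest of the 30 arrays, so their distances are extrapolations.

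**Figure D5:**
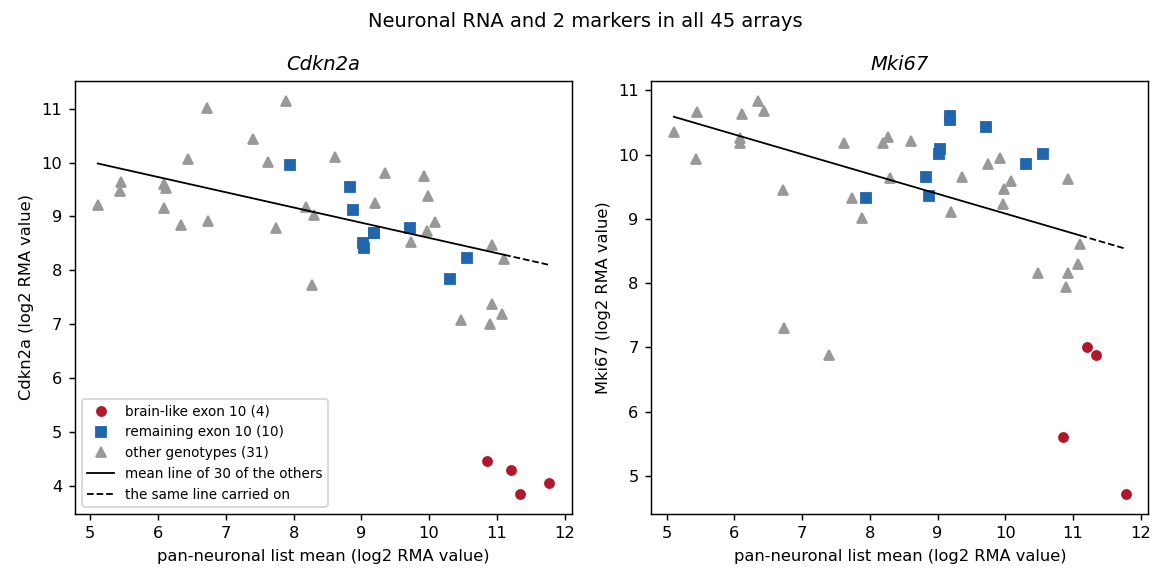
Cdkn2a and Mki67 (y axis, log2 RMA value) against the pan-neuronal list mean (x axis) in all 45 arrays, with the mean of the genotype lines fitted in 30 arrays of other genotypes, dashed beyond their range. The brain-like arrays lie at 3.85 to 4.46 for Cdkn2a, below every other array, whereas for Mki67 they lie at 4.72 to 7.0, where the lowest value elsewhere is 6.88.

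In 5 arrays of other genotypes the score was at least 10.85, the lowest of the brain-like arrays. They were EGFRvIII replicate 1, D842V replicate 1, V544ins replicates 1 and 3 and C450 ins replicate 1. Cdkn2a in these 5, in that order, was 8.47, 7.18, 7.37, 7.01 and 8.21, and Mki67 was 9.62, 8.30, 8.16, 7.94 and 8.61. That these Cdkn2a values exceed the brain-like ones follows from how the brain-like arrays were chosen and supports nothing further. Their interferon list means were 6.91, 6.89, 7.58, 8.84 and 8.00 and their oligodendrocyte progenitor list means 9.27, 8.42, 8.91, 9.30 and 8.99, where the highest brain-like means were 5.53 and 7.72. Among the remaining 10 exon 10 arrays, the 2 with scores over 10, E10 del.v2 replicates 1 and 4, had Cdkn2a at 8.22 and 7.83 and mitosis list means at 8.03 and 7.94.

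Because 3 of the 5 E10 del arrays and 1 of the 9 E10 del.v2 arrays were brain-like, the comparison of the 2 genotypes was read with that makeup in view. By limma over all 8 genotype groups 0 of 11809 genes (0%) passed an adjusted p under 0.05. At an unadjusted p under 0.05, 469 genes were higher and 914 lower in E10 del, and the smallest adjusted p was 0.165. The 5 genes with the smallest p were Sec14l3 (E10 del minus E10 del.v2 1.21 ± 0.25, SE), Spink8 (2.21 ± 0.48), Caprin2 (-0.83 ± 0.18), Epha6 (1.88 ± 0.43) and Npy2r (2.41 ± 0.56). Cdkn2a averaged 5.91 ± 2.35 in E10 del (SD, n = 5) and 8.32 ± 1.72 in E10 del.v2 (SD, n = 9), a difference that did not pass (adjusted p = 0.343). Without the 4 brain-like arrays, which left 2 E10 del and 8 E10 del.v2 arrays, 0 genes passed as well. The count of 0 depends on the fit. With array weights 3296 of 11809 genes were higher and 4035 lower in E10 del. In that fit E10 del replicates 4 and 5 had weights of 0.27 and 0.27, and E10 del.v2 replicate 2 had 0.17. The 3 brain-like E10 del arrays had weights of 0.55 to 4.93. The weighted fit thus set mainly brain-like E10 del arrays against remaining E10 del.v2 arrays. Its counts cannot be told apart from the division of the sets and are not a test of genotype. In fits without weights that left out 1 array, the higher and lower counts were 3 and 11 without E10 del.v2 replicate 2. They were 6 and 2 without E10 del replicate 4, and 3 and 1 without E10 del replicate 5.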

How the data were processed

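The 45 arrays were deposited as log2 values that the authors had normalised with RMA, per the submitters' processing notes, from 100 ng of total RNA per array, per the labels' protocols. Of 45141 probe sets 28898 had 1 gene symbol in the platform annotation, 551 had several and 15692 had none. The probe set with the highest mean stood for its gene. Genes above the table median in at least 3 arrays were kept (11809). The members and gene lists were chosen with earlier results of these data known. Named genes are the 10 largest differences in each direction without overlap, up to 6 members per list by size plus markers of region, the 10 largest slopes in each direction and the 5 smallest p between genotypes. Slopes and genotype differences came from limma (version 3.58.1, under R 4.3.3) with Benjamini-Hochberg adjustment, and correlations used 100000 permutations where not enumerated. On simulated data the slope fit recovered 79% of slopes of 0.25 and 98% of slopes of 0.5 over 11792 genes, with 6.35% of calls false. The genotype fit recovered 60% of differences of 1 and 80% of differences of 2 over 11809 genes, with 6.67% of calls false. The simulated noise was normal, independent between genes and of the same spread in every array. It did not include the mixture of brain-like and remaining arrays in E10 del, so these rates may not hold for that comparison. Alternatives were other probe set rules, filters, scalings, blocks, array weights and subsets of arrays, and leaving out each array.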

Additional observations from a re-analysis of the deposited data

Results flagged for a closer look

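Within E10 del and within E10 del.v2, 51 measures were examined for a single array far from the others of its genotype by Dixon's test. Of 102 tests 22 met it. The rate of about 1 in 20 groups expected by chance is no yardstick for this count. The measures are related to each other, and the choice of the brain-like arrays used Cdkn2a and neuron genes. In 17 of the 22 the array was E10 del.v2 replicate 2, the 1 brain-like array of that genotype, so these values repeat the division described above.

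Among the 9 E10 del.v2 arrays replicate 2 was lowest for Cdkn2a at 4.05 (next array 7.83), Mki67 at 4.72 (9.32), Pdgfra at 4.16 (6.79), Eif2s3y at 3.23 (8.02) and Mycn at 9.13 (12.86). Of list means it was lowest for mitosis at 4.06 (next array 7.52), DNA replication at 5.14 (7.05), oligodendrocyte progenitor genes at 6.85 (9.69), neural stem and progenitor genes at 7.06 (8.44) and CDK inhibitors at 6.22 (7.73). It was also lowest for the list means of MYC and ribosome synthesis genes at 7.59 (9.05), PDGF ligands and receptors at 5.08 (5.42), MAPK output at 7.57 (8.21), mesenchymal glioma genes at 4.42 (5.60) and collagen and matrix genes at 5.28 (6.47). It was highest for synaptic vesicle genes at 10.85 (9.37) and for the Actb 3' minus 5' difference at 1.19 (0.78).

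Other arrays stood apart in single lists. E10 del replicate 2 was highest of 5 for choroid plexus genes at 8.01 (next array 4.48), and E10 del replicate 3 was lowest of 5 for PDGF ligands and receptors at 5.05 (5.43). E10 del.v2 replicate 4 was highest of 9 for choroid plexus genes at 7.20 (4.55), replicate 1 for immediate early genes at 8.99 (7.20), and replicate 8 for neutrophil genes at 7.85 (4.62).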

How the results depend on the processing

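The counts of genes without overlap depend on scaling and on how many arrays are compared, the second by construction. With arrays centred 2124 genes were higher and 1686 lower, which turns the larger direction, and after quantile normalisation 1706 and 2149. Higher and lower counts were 3829 and 4832 within titles 41 to 64, 3364 and 4520 within E10 del, 3601 and 4644 within E10 del.v2, and 2225 were higher within titles 1 to 30. Against the other 41 arrays, a comparison chosen after seeing the data, they were 121 and 474. Leaving out 1 array gave 1432 to 2015 higher and 2440 to 2810 lower. For slopes, 583 genes rose and 143 fell within titles 41 to 64, 2089 fell within V544ins, and against a minimum slope of 0.25, 475 rose and 4 fell. Leaving out 1 array gave 2233 to 2503 that rose and 3308 to 3854 that fell. For E10 del against E10 del.v2, 1 gene was higher with no filter, 1 was lower within titles 1 to 30 and 3 were higher with the neuronal score as a covariate. Array weights gave 3296 higher and 4035 lower genes, and the same counts without the Pdgfra WT array, an alternative chosen after seeing the data. As described above, these weighted counts cannot be told apart from the division of the sets. Leaving out 1 array gave 0 to 6 higher and 0 to 11 lower genes. The difference turned for Mki67 without the 4 brain-like arrays (0.082) and for Rbfox3 with title range as a block (-0.83) and within titles 1 to 30 without the brain-like arrays (-0.75, chosen after seeing the data). Correlations with the score that no longer passed were -0.36 within EGFRvIII, -0.38 within titles 41 to 64 and -0.61 within titles 1 to 30 for Cdkn2a, and within titles 41 to 64 -0.15 for Mki67 and -0.26 for the mitosis list. Within EGFRvIII the sign turned for Mki67 (0.058), the mitosis list (0.0079), the DNA replication list (0.024) and the Actb 3' minus 5' difference (-0.17). The sign also turned for the myelin list within V544ins (-0.70), the microglia list within titles 41 to 64 (0.10), and the Actb difference within titles 41 to 64 (-0.065) and titles 1 to 30 (-0.018). Where the alternative was not a smaller or larger set of arrays, the cause was not tested. No paired analysis was possible because the labels give the genotypes no shared replicate numbers.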
